A study of Mus musculus with 4 samples.

Results

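The proteasome genes of the P7 mouse heart are described here, meaning the autosomal protein-coding genes whose symbol starts with *Psm*, goes on with a letter from *a* to *g* and then has a digit. Of the 24454 genes in the count table, 50 met this rule, and 49 of them had enough reads to be tested. They comprise 7 alpha and 7 constitutive beta subunits of the 20S core, 3 immunoproteasome subunits, 2 tissue-specific core subunits, 6 base ATPases, 11 other subunits of the 19S regulatory particle, 4 activators, 1 inhibitor and 6 assembly chaperones. The other 3 genes carry the name of a partner or a copy and are no subunits, which leaves 47 genes of the complex. *Psmd10*, an assembly chaperone on the X chromosome, was outside the rule. So were *Adrm1* and *Sem1*, 19S subunits with other symbols, which are counted below among the other genes of the pathway.

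RNA-seq was performed on hearts at postnatal day 7 (P7), with 2 libraries of *miR-128*OE mice (WH9 and WH10) and 2 of control mice (Ctrl, WH7 and WH8). In *miR-128*OE mice the *α-MHC*-tTA transgene was combined with the *miR-128*TetRE allele, so that the *α-MHC* promoter drove the tetracycline-responsive activator in cardiomyocytes (CMs) and the activator drove a *miR-128* gene placed in the Rosa26 locus. Ctrl mice carried the *miR-128*TetRE allele without the activator, and all mice were on a C57BL/6 background. Doxycycline represses this transgene, and the labels do not give the diet of the P7 mice. The mature strand of the overexpressed miRNA, *miR-128-3p*, is shown with its seed (bases 2 to 8) in capitals, and it is the same for both mouse precursors, at chr1:128202404-128202424 on the plus strand and chr9:112118644-112118664 on the minus strand (RefSeq, GRCm38.p6).
miR-128-3p: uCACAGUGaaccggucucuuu

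The 26S proteasome degrades proteins that carry ubiquitin chains. Its 20S core is a barrel of stacked alpha and beta rings, in which the alpha rings control entry and certain beta subunits cut the substrate, and its 19S particle binds the ubiquitin chain, removes it and unfolds the protein with a ring of ATPases. Interferon signals exchange the cutting beta subunits for the immunoproteasome subunits, which favor peptides suited to MHC class I. In heart muscle the proteasome takes part in the turnover of sarcomere proteins, and the transcription factor NFE2L1 is known to raise proteasome genes together when proteasome activity is short.

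Library totals ranged from 8096870 counts (WH8) to 14359838 counts (WH10), and a floor of 3 counts corresponded to 0.209 to 0.371 CPM, covering counting error only. Nothing in the labels says that the 2 libraries of a group came from separate hearts, so the p-values measure only the spread between these libraries. *Xist* had 14543 and 11339 counts in WH7 and WH8 but 94 and 132 in WH9 and WH10, and *Ddx3y* had 13 and 7 against 1442 and 1768, so the condition and the sex of the mice cannot be told apart. The precursor genes *Mir128-1* (0 counts in each library) and *Mir128-2* (0, 0, 2 and 10) do not measure the transgene's mature product. CM markers were abundant in each library, with a summed level of 47210 and 50594 CPM in Ctrl against 61665 and 60133 in *miR-128*OE hearts, and 3 of the 8 were higher and 2 were lower. Summed macrophage markers were 123 and 86.2 CPM against 97.4 and 99.5, with 0 of 8 called, and lymphocyte markers 9.48 and 10.6 against 9.25 and 11.1, with 0 of 4 tested called. At an unadjusted p under 0.05, and by DESeq2, 0 of these macrophage and lymphocyte markers passed as well. Some markers of other cell types moved with the groups. Summed erythroid markers were 44.7 and 32.1 CPM against 78.5 and 71.5, with *Alas2* higher by 1.05 (adjusted p = 0.00106) and both listed globin genes at 0. Endothelial sums were 1402 and 1393 against 1584 and 1475, with *Pecam1* and *Cdh5* higher and *Emcn* lower. Smooth muscle and pericyte sums were 879 and 848 against 923 and 973, with 1 of 4 markers higher (*Rgs5*) and 1 lower (*Myh11*). Fibroblast sums overlapped between the groups, at 5670 and 3666 against 4519 and 5019, with 1 of 6 markers higher (*Lum*) and 0 lower. In such bulk samples, fewer cells of a type and less RNA per cell cannot be told apart.

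Transcripts of the constitutive proteasome were higher in *miR-128*OE hearts across the core and the regulatory particle. Of the 31 constitutive 26S subunits that met the rule, 26 were higher and 0 lower at an adjusted p-value under 0.05 (edgeR's quasi-likelihood test). The median log2 fold change of these subunits was 0.38, which is 1.30-fold. At an unadjusted p under 0.05, 28 were higher and 0 lower, and the DESeq2 test called 23 higher and 0 lower. By class, 6 of 7 alpha subunits, 7 of 7 constitutive beta subunits, 6 of 6 base ATPases and 7 of 11 other regulatory subunits rose. The immunoproteasome gene *Psmb8* was the 1 member that fell, and none of the 6 assembly chaperones passed the test. Over the 49 tested members, 30 were higher, 1 was lower and 18 had no call. Their median log2 fold change was 0.31, with a range of −0.89 to 1.55. The share called was 16.5% higher and 15% lower among all 14266 genes tested, whose median log2 fold change was −0.01. Both *miR-128*OE libraries lay above both Ctrl libraries for 37 members and below them for 3, against 33.7% and 34.4% of all genes. Constitutive subunits are abundant transcripts, and among 3081 autosomal protein-coding genes in their range of levels 30.3% were higher and 17.5% lower, and the median log2 fold change was 0.09.

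The summed level of the 31 constitutive subunits was 3415 and 3386 TMM-scaled CPM in WH7 and WH8 and 4348 and 4277 in WH9 and WH10. As a share of all counts, without any scaling, this was 0.355% and 0.348% against 0.416% and 0.417%. The groups did not overlap, but an exact permutation test of 2 against 2 libraries cannot give a two-sided p below 0.333. The size of the difference depended on the scaling and on an offset for GC content and length. With that offset, the median log2 fold change of the constitutive subunits was 0.29, with 20 called higher and 0 lower. With library totals in place of TMM factors, the median over all genes was −0.11 on the log2 scale, calls over all genes went from 2347 higher and 2143 lower to 1611 higher and 2948 lower, and 21 members were called higher and 1 lower. The number of calls also fell without WH9. Without it, 9 members were higher and 1 was lower, while 6.13% of all genes were then higher, and the median log2 fold change of the constitutive subunits was 0.36. CM, erythroid and endothelial markers moved with the same groups, and their part in this result was not tested.

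**Figure D1:**
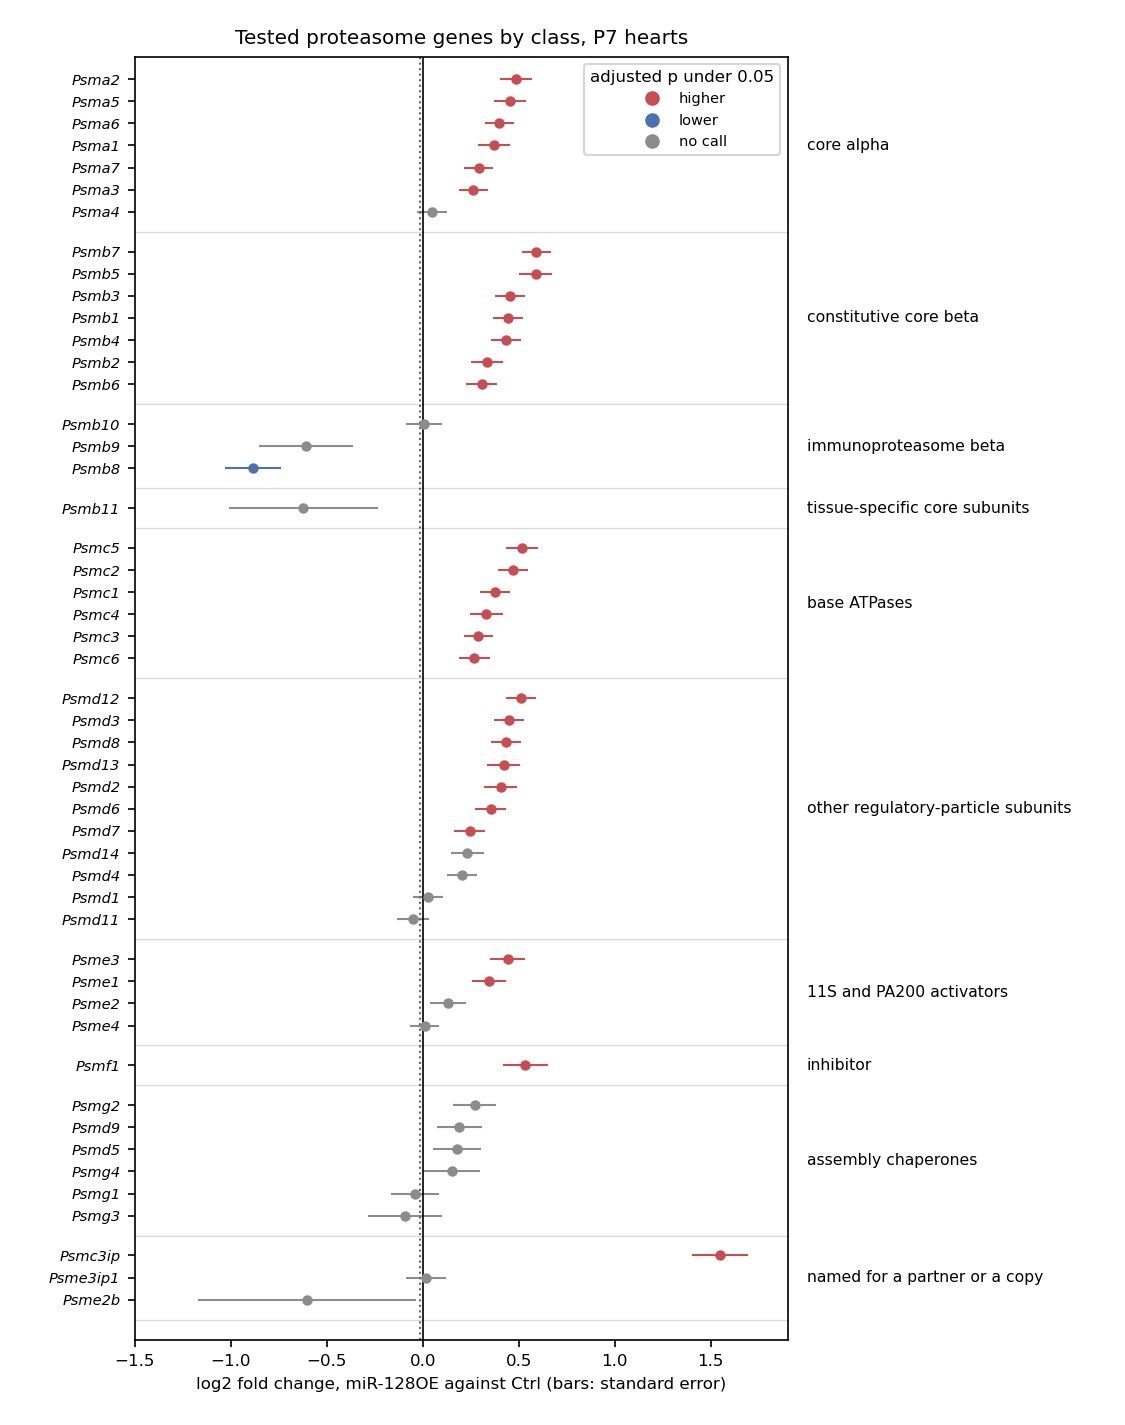
Log2 fold change (*miR-128*OE against Ctrl) of the 49 tested proteasome genes, grouped by class, with bars for the standard error (SE) and colors for the call at an adjusted p-value under 0.05. The dotted line is the median of all genes (−0.01). Constitutive core and base subunits sit to the right of 0, *Psmb8* (−0.89) is the 1 gene called lower, and the 6 assembly chaperones (−0.09 to 0.27) have no call.

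The alpha subunits form the outer rings of the core, and 6 of the 7 rose, with a median log2 fold change of 0.37. *Psma2* (chr13:14613242-14625673) had 1082 and 998 normalized counts in WH7 and WH8 and 1480.2 and 1437 in WH9 and WH10. Its groups did not overlap, and the log2 fold change was 0.49 (standard error, SE, 0.08, adjusted p = 0.00232, edgeR). For *Psma5* the values were 748 and 750.5 against 1060.4 and 993 normalized counts, with a log2 fold change of 0.45 (SE 0.08, adjusted p = 0.00341). This call was lost without WH9, where the adjusted p was 0.0617. The log2 fold changes of the others were 0.40 for *Psma6*, 0.37 for *Psma1*, 0.29 for *Psma7*, 0.26 for *Psma3* and 0.05 for *Psma4*. *Psma4* was the 1 alpha subunit without a call, and its libraries overlapped. Of the alpha subunits, 1 was called without WH9 and 4 were called without WH10.

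All 7 constitutive beta subunits rose, by 0.31 to 0.59 on the log2 scale, but without WH9 only 3 kept their call (*Psmb4*, *Psmb5* and *Psmb7*), and without WH10 5 were called. The largest changes were those of *Psmb7*, which carries the trypsin-like activity, and *Psmb5*, which carries the chymotrypsin-like activity of the core. *Psmb7* (chr2:38588046-38643952) had 1437 and 1504 normalized counts in Ctrl against 2260.4 and 2169 in *miR-128*OE hearts, a 1.51-fold difference (log2 fold change 0.59, SE 0.08, adjusted p = 0.000679). *Psmb5* (chr14:54614120-54617995) had 834 and 760.4 against 1219.8 and 1183, a log2 fold change of 0.59 (SE 0.09, adjusted p = 0.00111). Both genes kept their call under each of the 12 alternatives run, but the log2 fold change of *Psmb5* was 0.35 with an offset for GC content and length, below those of *Psmb1* (0.44) and *Psmb3* (0.36), while that of *Psmb7* was 0.58. *Psmb6*, the subunit with the caspase-like activity, changed least among them, by 0.31, and both it and *Psmb2* lost their call under 4 alternatives. The structural subunits *Psmb3*, *Psmb1*, *Psmb4* and *Psmb2* had log2 fold changes of 0.45, 0.44, 0.43 and 0.34.

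**Figure D2:**
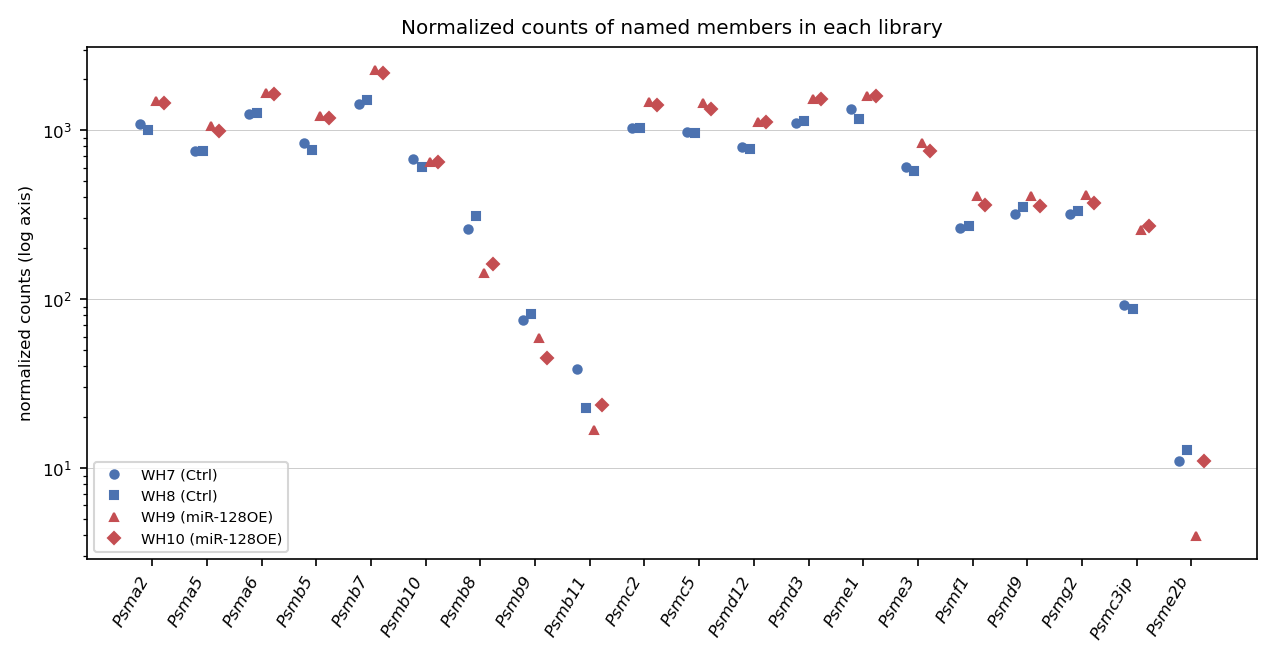
Normalized counts (log axis) of 20 proteasome genes in each of the 4 libraries, with Ctrl in blue and *miR-128*OE in red. For *Psmb7* the *miR-128*OE libraries (2260.4 and 2169) lie above the Ctrl libraries (1437 and 1504), for *Psmb8* the order is reversed (144 and 161 against 259 and 309.5), and for *Psmb10* the libraries overlap.

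The immunoproteasome subunits did not follow the genes that they replace. *Psmb8*, the interferon-inducible counterpart of *Psmb5* (chr17:34198195-34201454), had 259 and 309.5 normalized counts in WH7 and WH8 and 144 and 161 in WH9 and WH10. It was 0.541-fold in *miR-128*OE hearts (log2 fold change −0.89, SE 0.15, adjusted p = 0.00215, edgeR), and the call held under all 12 alternatives, with adjusted p-values from 1.5e-07 to 0.0325. *Psmb9*, the counterpart of *Psmb6* (chr17:34182030-34187330), had 74.99 and 81.97 against 58.4 and 44.6 normalized counts. Its groups did not overlap, but it did not pass the test (log2 fold change −0.61, SE 0.25, adjusted p = 0.0876). *Psmb10*, the counterpart of *Psmb7* (chr8:105935728-105938392), had 676 and 605 against 644 and 648 normalized counts, so the groups overlapped (log2 fold change 0.01, SE 0.09, adjusted p = 0.96).

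Within each library, which needs no scaling between libraries, every immunoproteasome gene had fewer counts per count of its partner in *miR-128*OE hearts. *Psmb8* had 31.0 and 40.7 counts per 100 counts of *Psmb5* in WH7 and WH8 and 11.8 and 13.6 in WH9 and WH10. *Psmb9* had 4.10 and 4.90 counts per 100 of *Psmb6* against 2.72 and 2.04. *Psmb10* had 47.0 and 40.2 counts per 100 of *Psmb7* against 28.5 and 29.9. Together the immunoproteasome genes made up 19.8% and 20.2% of the counts of the 6 catalytic genes in Ctrl against 13.1% and 13.4% in *miR-128*OE hearts. The groups did not overlap in these 4 ratios, for which the smallest exact permutation p is 0.333, as above. A ratio of 2 genes does not by itself show which gene changed. In the fit across libraries, the log2 fold changes were −0.89 for *Psmb8* and 0.59 for *Psmb5*. They were −0.61 for *Psmb9*, without a call, and 0.31 for *Psmb6*. For *Psmb10* and *Psmb7* they were 0.01 and 0.59, so this ratio fell with the rise of *Psmb7*. Macrophages and lymphocytes are rich in immunoproteasome. The marker sums of both overlapped between the groups, as given above. Macrophage markers had a median log2 fold change of −0.12 with SEs of 0.13 to 0.46, and lymphocyte markers a median of 0.03. The part of these cells in the immunoproteasome values was not tested.

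**Figure D3:**
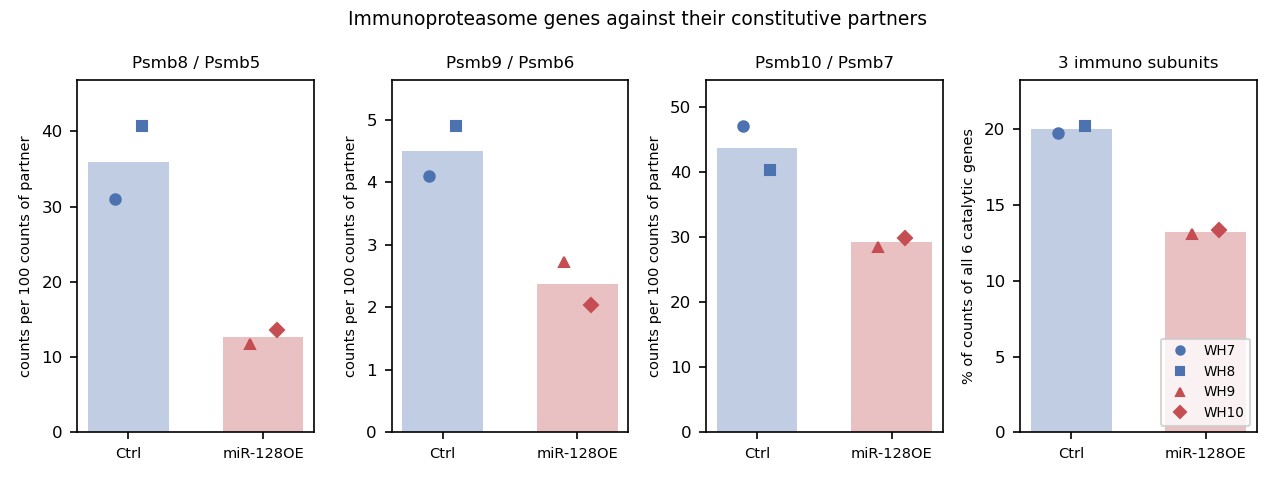
Counts of each immunoproteasome gene per 100 counts of its constitutive partner, and the share of the 3 immunoproteasome genes among the counts of all 6 catalytic genes (in %). Points are libraries and bars are group means of 2 libraries. The *miR-128*OE libraries lie below the Ctrl libraries in each panel, from 19.8% and 20.2% to 13.1% and 13.4% in the last.

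The tissue-specific core subunits had few reads. *Psmb11*, the beta subunit of the thymus cortex, had 38.4 and 22.6 normalized counts in Ctrl against 16.8 and 23.6 in *miR-128*OE hearts, so the libraries overlapped (log2 fold change −0.62, SE 0.39, adjusted p = 0.25). *Psma8*, the alpha subunit of male germ cells, had 7, 3, 9 and 18 raw counts in WH7, WH8, WH9 and WH10 and was not tested.

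The 6 base ATPases, which unfold the substrate and thread it into the core, all rose, by 0.27 to 0.52 on the log2 scale. *Psmc5* (chr11:106256185-106263112) had 974 and 962 normalized counts in Ctrl against 1450.5 and 1325 in *miR-128*OE hearts (log2 fold change 0.52, SE 0.08, adjusted p = 0.00187). *Psmc2* (chr5:21785275-21803787) had 1036 and 1032 against 1458 and 1405 (log2 fold change 0.47, SE 0.08, adjusted p = 0.00217). In both genes the spread between the libraries of a group was small beside the difference, and both calls held under the 12 alternatives. The log2 fold changes of *Psmc1*, *Psmc4*, *Psmc3* and *Psmc6* were 0.38, 0.33, 0.29 and 0.27, and their calls were lost without WH9. Those of *Psmc4*, *Psmc3* and *Psmc6* were lost without WH10 too.

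The rest of the 19S particle was less uniform. Among the 8 lid subunits that met the rule, which hold the deubiquitinase and its scaffold, 6 rose, with a median log2 fold change of 0.39. *Psmd12* (chr11:107479528-107498036) had 789 and 776 normalized counts in Ctrl against 1122 and 1110.2 in *miR-128*OE hearts (log2 fold change 0.51, SE 0.08, adjusted p = 0.00155). *Psmd3* (chr11:98682554-98695978) had 1109 and 1128 against 1534 and 1522 (log2 fold change 0.45, SE 0.08, adjusted p = 0.00247). These scaffold subunits of the lid kept their call under all 12 alternatives. *Psmd8*, *Psmd13*, *Psmd6* and *Psmd7* were higher by 0.43, 0.42, 0.35 and 0.24, and all 4 lost their call without WH9. *Psmd6* also lost its call without WH10, and *Psmd7* under 7 of the 12 alternatives. *Psmd14*, the deubiquitinase itself, had a log2 fold change of 0.23 without a call, and *Psmd11*, a scaffold subunit, −0.05 without a call. Of the 3 base subunits under the rule that are no ATPases, the scaffold *Psmd2* rose by 0.41, a call lost without WH9. The ubiquitin receptor *Psmd4* (0.20) and the scaffold *Psmd1* (0.03) had no call. The libraries of *Psmd1* and *Psmd11* overlapped.

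Of the 4 activators, which dock on the core in place of the 19S particle, *Psme3* and *Psme1* rose. *Psme3*, the subunit of the nuclear PA28 ring, had 601 and 571 normalized counts in Ctrl against 839 and 756 in *miR-128*OE hearts (log2 fold change 0.44, SE 0.09, adjusted p = 0.00691). *Psme1*, an interferon-inducible subunit of the cytoplasmic PA28 ring, had 1341 and 1165 against 1595 and 1588 (log2 fold change 0.34, SE 0.09, adjusted p = 0.0171). Its partner in that ring, *Psme2*, had a log2 fold change of 0.13 and *Psme4*, which encodes PA200, one of 0.01, both without a call. The inhibitor *Psmf1* (PI31) had 262 and 269.9 against 407 and 363 normalized counts, a log2 fold change of 0.53 (SE 0.12, adjusted p = 0.0083). Without WH9, the calls of *Psme3*, *Psme1* and *Psmf1* were lost, with adjusted p-values of 0.103, 0.126 and 0.102, and that of *Psme1* was lost without WH10 too.

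None of the 6 assembly chaperones passed the test (0 by edgeR, 0 by DESeq2 and 1 at an unadjusted p under 0.05), and their median log2 fold change was 0.16. *Psmg2*, which builds the alpha ring together with *Psmg1*, had 317 and 331 normalized counts in Ctrl against 411 and 371 in *miR-128*OE hearts. Its groups did not overlap, but its log2 fold change of 0.27 (SE 0.11) had an adjusted p of 0.0936. *Psmd9*, a chaperone of the ATPase ring, had 320.1 and 352 against 408 and 357 (log2 fold change 0.19, SE 0.12, adjusted p = 0.25). The other log2 fold changes were 0.18 for *Psmd5*, 0.15 for *Psmg4*, −0.04 for *Psmg1* and −0.09 for *Psmg3*. The chaperones were weaker transcripts than the subunits, and their SEs of 0.11 to 0.19 exceeded those of 0.08 to 0.09 in the constitutive subunits, so a change of the size seen in the subunits was harder to call in them. The X-linked chaperone *Psmd10* had no call either (log2 fold change 0.37, SE 0.18, adjusted p = 0.138).

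The largest fold change under the *Psm* symbols belonged to a gene that encodes no subunit. *Psmc3ip*, singled out after its values were seen, encodes a recombination factor named for its binding to the *Psmc3* product. It had 92.4 and 87.6 normalized counts in Ctrl against 256 and 272 in *miR-128*OE hearts, a 2.92-fold difference (log2 fold change 1.55, SE 0.15, adjusted p = 0.000144). Its annotated exons share 385 bases with *Mlx* on the other strand. *Psme3ip1* (0.02) and *Psme2b* (−0.60), a near-identical copy of *Psme2* with few reads, had no call.

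Per length, the members covered a wide range of levels. Levels here are TMM-scaled CPM per kb of the union of exons. Over the 31 constitutive subunits, the median was 39.2 and 38.1 in WH7 and WH8 and 49.96 and 51.0 in WH9 and WH10, and their Ctrl means ran from 11.2 (*Psmd11*) to 85.8 (*Psma6*). *Psma6* was the highest member in Ctrl hearts (85.2 and 86.4), followed by *Psmc1* (82.7 and 81.7) and *Psmb6* (82.9 and 75.9), whose values overlapped. The lowest was *Psma8* (0.218 and 0.144), after *Psmb11* (0.681 and 0.401), and these did not overlap in Ctrl but did in *miR-128*OE hearts (0.303 and 0.516 against 0.298 and 0.418). The inducible genes were spread over this range. *Psme1* averaged 48.2 in Ctrl hearts and ranked 11 of the 50 members, *Psmb10* averaged 31.9 in Ctrl and 32.2 in *miR-128*OE hearts, *Psmb8* 7.14 and 3.83, and *Psmb9* 1.82 and 1.20. With the longest transcript as the length, the constitutive median in Ctrl hearts was 59.4 in place of 38.6, and *Psmb6* took the first rank.

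**Figure D4:**
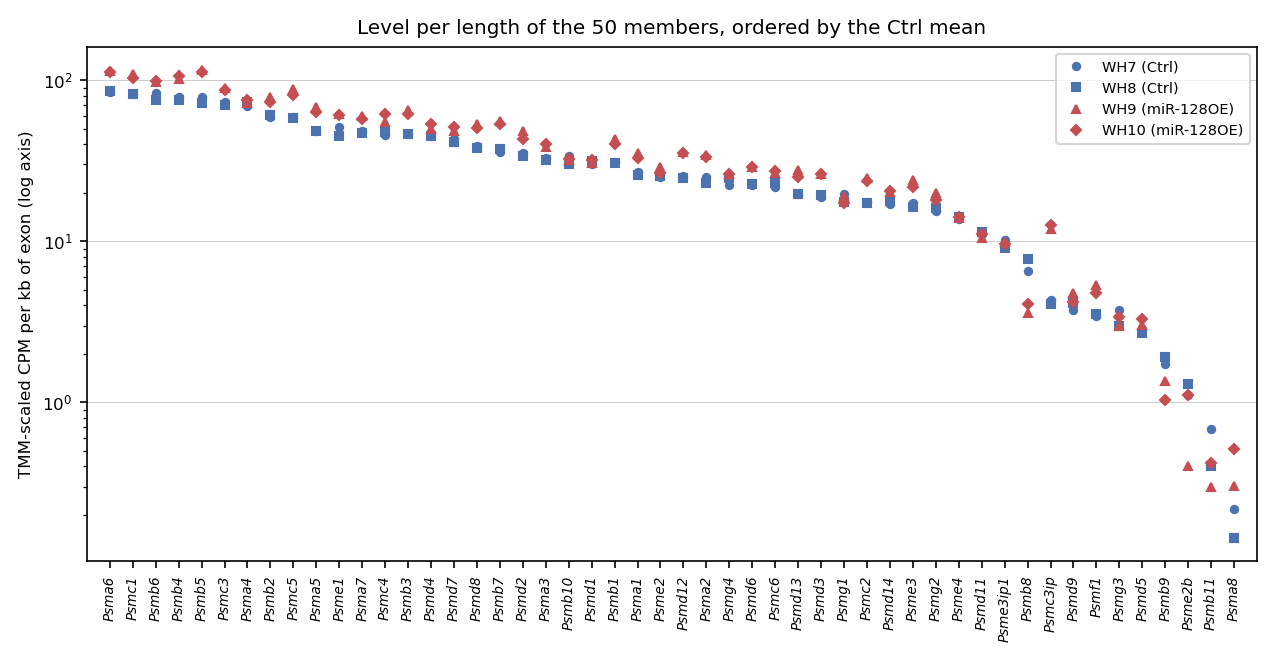
Level per length (TMM-scaled CPM per kb of exon, log axis) of the 50 members in each library, ordered by the Ctrl mean from *Psma6* to *Psma8*. Red *miR-128*OE points lie above the blue Ctrl points for most of the constitutive subunits on the left, and below them for *Psmb8* (3.83 against 7.14 on average).

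Other genes of the ubiquitin-proteasome pathway were compared by the same fit. As given above, 30.3% of autosomal protein-coding genes in the level range of the constitutive subunits were higher and 17.5% lower. A share matched to the levels of the genes compared here was not computed. Of 90 autosomal genes in 8 lists, with a median log2 fold change of 0.24, 39 were higher and 10 were lower, against 16.5% and 15% of all genes. Without WH9, 14 were higher and 0 were lower, and without WH10, 25 were higher and 0 were lower. Calls over all genes became fewer in both of these fits too. Among 10 factors that bind, build or belong to the proteasome, 6 rose and 0 fell. In this list and in those of the ubiquitin shuttles and of *Vcp*, 0 genes were lower at an unadjusted p under 0.05 or by DESeq2. *Adrm1*, a ubiquitin receptor of the 19S particle, had 770.0 and 789 normalized counts in Ctrl against 1127 and 1132 in *miR-128*OE hearts (log2 fold change 0.54, SE 0.08, adjusted p = 0.00126). *Zfand5*, an activator of the 26S proteasome, was higher by 0.53 on that scale (adjusted p = 0.00129). *Pomp*, the maturation factor of the core, had 996 and 886 against 1287 and 1276 normalized counts (log2 fold change 0.44, SE 0.09, adjusted p = 0.00497), and its adjusted p was 0.0609 without WH9.

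*Nfe2l1* encodes the transcription factor that drives proteasome genes, and it had 3315 and 3150.4 normalized counts in Ctrl against 4411 and 4178 in *miR-128*OE hearts. This was a log2 fold change of 0.41 (SE 0.08, adjusted p = 0.00499), and the adjusted p was 0.0846 without WH9. *Nfe2l2*, its relative in the oxidative stress response, had 853 and 957 against 941 and 968, so the libraries overlapped (log2 fold change 0.08, SE 0.09, adjusted p = 0.519). Of the 8 genes in this list of regulators, 3 rose and 1 fell, against 16.5% higher and 15% lower among all genes. In the level range of the constitutive subunits 30.3% were higher and 17.5% lower, as given above. The small MAF partner *Mafk* was higher by 0.62 (adjusted p = 0.00325), and *Mafg* was lower, with a log2 fold change of −0.33 and an adjusted p of 0.05 after rounding, a call that was lost under 7 of 12 alternatives.

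Genes upstream of the proteasome were higher in part, beside 16.5% higher and 15% lower among all genes tested. In the level range of the constitutive subunits these shares were 30.3% and 17.5%. *Vcp*, the ATPase that extracts ubiquitin-bearing proteins, had 4824 and 4861 normalized counts in Ctrl against 7045 and 6706 in *miR-128*OE hearts (log2 fold change 0.51, SE 0.08, adjusted p = 0.00193). With its cofactors, among them *Nploc4* (0.44), 4 of 9 genes rose and 0 fell. Among 6 ubiquitin shuttles 3 rose, with *Sqstm1* at 0.48 and *Rad23b* at 0.45. None of the 5 ubiquitin and E1 genes was called by edgeR or by DESeq2, and 1 was higher and 1 lower at an unadjusted p under 0.05. Of 27 E2 enzymes, which pass ubiquitin on to the ligases, 16 rose and 1 fell. *Ube2b* (0.63) and *Cdc34* (0.67) had the smallest p-values, and *Ube2t*, an E2 of DNA crosslink repair, was lower (−0.73, adjusted p = 0.0452), a call that was lost without WH8, WH9 or WH10. Of 15 ubiquitin ligases of muscle, 6 rose and 1 fell. *Fbxl22*, an F-box protein of the Z-disc, had 1329 and 1221 normalized counts against 2494 and 2507 (log2 fold change 0.97, SE 0.08, adjusted p = 7.34e-05), and *Asb2*, a ligase for filamins, was higher by 0.90. *Fbxo32*, the atrophy-related ligase atrogin, was lower, with 899 and 1001 against 748 and 674 normalized counts (log2 fold change −0.42, SE 0.09, adjusted p = 0.00959). The calls of *Nploc4* and *Rad23b* were lost without WH9, and that of *Fbxo32* without WH9 or WH10.

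The partners of the immunoproteasome in antigen presentation moved the other way. Of 10 such genes 7 were lower and 1 was higher, against 15% and 16.5% of all genes, and the median log2 fold change was −0.41. The DESeq2 test called 3 of them lower, and all 7 lower calls were lost without WH9 and likewise without WH10, where the median was −0.41 and −0.36. Calls over all genes were fewer in these fits too. *Tap1*, a subunit of the peptide transporter, had 189 and 182 normalized counts in Ctrl against 112 and 113 in *miR-128*OE hearts (log2 fold change −0.73, SE 0.15, adjusted p = 0.00658). The class I heavy chain gene *H2-K1* had 1202 and 906 against 703 and 724 (log2 fold change −0.57, SE 0.12, adjusted p = 0.00789). *H2-D1*, another class I heavy chain gene, was higher, with 1107 and 919 against 1298 and 1372 (log2 fold change 0.39, SE 0.10, adjusted p = 0.0157). These class I genes are near-identical in parts, and reads may be split between them. *Tap1*, *Tap2*, *Tapbp*, *H2-K1* and *H2-D1* lie on chromosome 17, as do *Psmb8* and *Psmb9*, and the part of this shared location was not tested. Without WH9 or WH10 the adjusted p-values of *Tap1*, *H2-K1* and *H2-D1* were at most 0.115, and the call of *H2-D1* was also lost with total counts (0.0575).

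**Figure D5:**
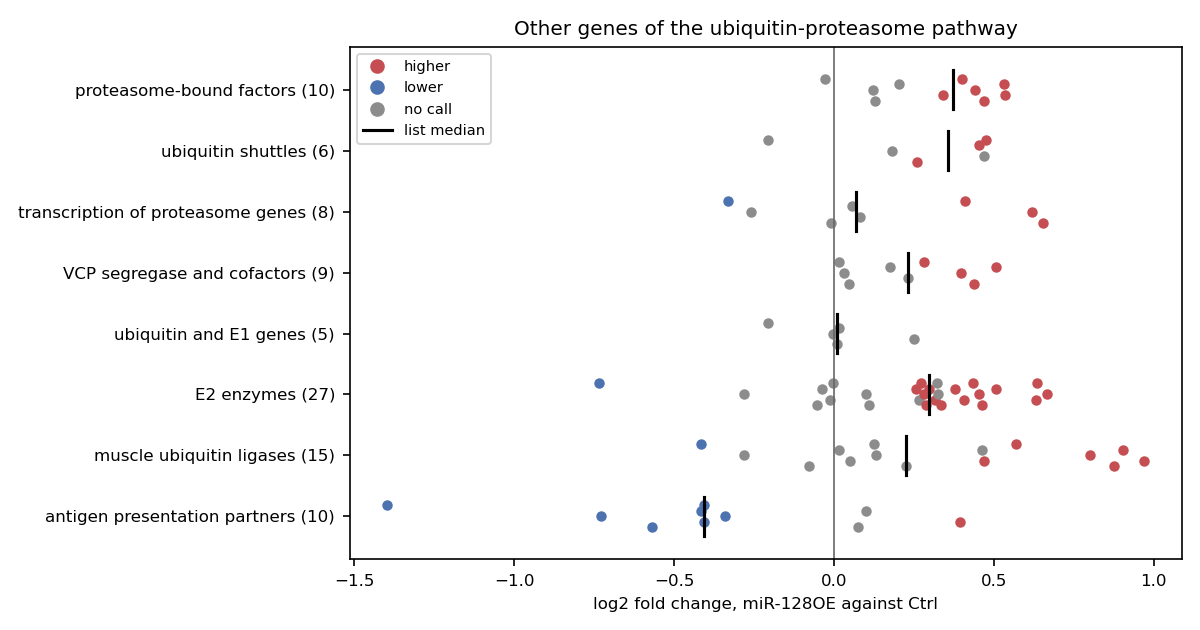
Log2 fold change (*miR-128*OE against Ctrl) of 90 other genes of the ubiquitin-proteasome pathway in 8 lists, with the number of genes in brackets, the list median as a black bar and colors for the call at an adjusted p-value under 0.05. The medians of proteasome-bound factors (0.37) and E2 enzymes (0.30) lie to the right of 0, and that of antigen presentation partners (−0.41) to the left.

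Sequence features that the choice of genes did not use were compared next. A match to the *miR-128-3p* seed, as the 7-mer CACTGTG (7mer-m8) or ACTGTGA (7mer-A1), was found in the longest 3′UTR of 8 of the 50 members, 16% against 31.1% of 12982 genes. Members had short 3′UTRs, with a median of 295 bases against 1198. The 8 members with a match had a median log2 fold change of 0.36, with 5 higher and 0 lower. *Psmc3ip* (1.55), which encodes no subunit, was among these 5. The other 41 tested members had a median of 0.29, with 25 higher and 1 lower. Over all genes tested, 16.5% were higher and 15% lower. Some subunits with a match were thus among those that rose. The sites of the 5 constitutive subunits are shown, as they include the called genes *Psmc1*, *Psma1*, *Psmd6* and *Psmd8* (0.38, 0.37, 0.35 and 0.43) and *Psmd11* (−0.05). They are written 5′ to 3′ on the strand of the transcript, with the match in capitals (GENCODE M21, GRCm38).
Psma1 3′UTR, chr7:114264619-114264647 on the minus strand: agttttaaagacaACTGTGAaataaaatt
Psmc1 3′UTR, chr12:100123273-100123301 on the plus strand: tatcgtggaggaCACTGTGcctccatctg
Psmd6 3′UTR, chr14:14112216-14112244 on the minus strand: ttctaacttcttCACTGTGtgcccacttc
Psmd8 3′UTR, chr7:29175314-29175342 on the minus strand: acagtgccagtgCACTGTGtgatagtcga
Psmd11 3′UTR, chr11:80472844-80472872 on the plus strand: ctttgctgtgccCACTGTGctttgtccct

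Promoters of 42 members, from 250 bases before to 50 bases after the start (RefSeq, GRCm38.p6), were searched on both strands for 3 motifs. A gene was counted if any of its promoters held the motif. The antioxidant response element core that NFE2L1 and NFE2L2 bind, TGACNNNGC, was found in 6 of these members, 14.3% against 15% of 16456 genes. Those 6 genes had a median log2 fold change of 0.29, with 4 higher, and the 36 without it 0.31, with 20 higher. The matches of the beta subunits *Psmb5* (0.59) and *Psmb6* (0.31) are shown as the closest to the start among the subunits, 47 and 9 bases before it, in windows at chr14:54617946-54618245 (minus strand) and chr11:70525107-70525406 (plus strand), with the match in capitals.
Psmb5 promoter: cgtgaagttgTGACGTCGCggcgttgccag
Psmb6 promoter: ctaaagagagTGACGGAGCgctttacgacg

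The CCAAT box was found in 15 of the 42 members, 35.7% against 42.3%. The interferon-stimulated response element core, GAAANNGAAA, was found in 5 of them, 11.9% against 3.98%, namely in *Psmd4*, *Psmd9*, *Psmb3*, *Psmg4* and *Psme1*. The promoters of *Psmb8*, *Psmb9* and *Psmb10*, whose transcripts had log2 fold changes of −0.89, −0.61 and 0.01, did not hold these letters in the window, and nothing follows from this about the factors. The match of *Psme1* (0.34) is shown from the window chr14:55578244-55578543 on the plus strand, where it begins 9 bases after the start and reads on the other strand.
Psme1 promoter: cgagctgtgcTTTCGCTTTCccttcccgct

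Some members share sequence with other genes, which bears on their counts because the sources used here do not give the rule for reads that fit several places or the handling of strand. A near-identical copy, of at least 95% identity over 200 bases or more, was found for 10 members. *Psma3*, *Psma4*, *Psma5*, *Psmb3*, *Psmb5*, *Psmb6*, *Psmc1* and *Psmd2* have pseudogenes of this kind, and *Psme2* and *Psme2b* match each other at 99.4% over 794 bases. Exons of *Psmb8*, the 1 member called lower, overlap those of the antisense gene *Gm20496* by 498 bases, and those of *Psmd9* overlap *Gm26745* by 1849. Exons of *Psmb9* overlap those of *Tap1* on the other strand by 212 bases, those of *Psmb7* overlap *Nek6* by 405 and those of *Psmd13* overlap *Sirt3* by 342, and overlaps of at most 301 bases were found for further members. Values of these genes are uncertain to that extent.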

How the data were processed

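RNA-seq of P7 hearts was analyzed, with 2 Ctrl and 2 *miR-128*OE libraries as grouped by the labels. The authors filtered reads by quality, aligned them to mm10 with TopHat2, counted them on known genes with Bioconductor packages and deposited raw counts per gene (Entrez identifiers). Gene models, strand handling and the treatment of multi-mapped reads are not given in the sources used here. Of 24454 identifiers, 24374 were matched to a symbol (RefSeq, GRCm38.p6).

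All 4 libraries were fitted with edgeR 4.0.16 (R 4.3.3), using filterByExpr defaults (minimum count 10, minimum total 15), TMM factors and the quasi-likelihood test. Benjamini-Hochberg adjustment covered the 14266 genes tested, and genes with an adjusted p under 0.05 were called. Standard errors were derived from the fold change and its F statistic, as the quotient of the former and the root of the latter. The biological coefficient of variation was 8.78%, and the prior degrees of freedom were 7.44. For normalized counts, each library was scaled by TMM to the average effective size of the 4. Library totals were 12385863, 8096870, 12440553 and 14359838 counts in WH7 to WH10, and the floor of 3 counts covers counting error only. Libraries of a group differed by more than sampling noise (chi-square per degree of freedom 9.91 and 4.82). The script was tested on simulated data.

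Lengths, GC content and 3′UTRs came from GENCODE M21, and near copies from blastn 2.17.0. Python 3.11.15 with pandas 2.3.3 was used for summaries. Alternatives were DESeq2 1.42.0 (test and size factors), upper-quartile factors, total counts, other filters, autosomal genes alone, loess offsets on exon GC and length (span 0.5), a threshold of 0.01 and each library left out.

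Genes are named by a rule. In each class the 2 members with the smallest p-value, each member called lower, each immunoproteasome subunit and the highest and lowest member by level are given with their values, and other members by log2 fold change. Of each pathway list the 2 called genes with the smallest p-value, genes called against most of their list, *Nfe2l1*, *Nfe2l2* and *Pomp* are named. The members and lists were chosen with earlier results of these data known. RNA-seq of wild-type hearts at P1, P7 and P28 was not analysed here.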

Additional observations from a re-analysis of the deposited data

How the results depend on the processing

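Calls on single members rested on few libraries, and leaving out WH9 or WH10 lowered the number of calls over all genes too. With either left out, only the Ctrl libraries gave a spread within a group. Of the 49 tested members, all kept their direction and their side of the threshold with DESeq2 size factors, without a filter on low counts and in a fit of autosomal genes alone, and the 48 left at 1 CPM or more did so too. The DESeq2 test lost 3 calls, upper-quartile factors 3, the offset for GC content and length 7 and total counts 9. Leaving out WH7 lost 1 call, WH8 1 (and gained 1), WH9 21 and WH10 10.

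The number of members called higher was 30, and 9 to 30 with a library left out, with 21 at a threshold of 0.01. The number called lower was 1 under each alternative. The median log2 fold change of the members was 0.31, against 0.21 with total counts and 0.23 with the offset for GC content and length. Without a library it ranged from 0.30 to 0.34. Of the 90 pathway genes, 39 were higher and 10 lower. With a library left out, these counts ranged from 14 to 39 and from 0 to 9. DESeq2 called 4 lower, and at a threshold of 0.01 there were 23 higher and 3 lower. The median level per length of the constitutive subunits in Ctrl was 38.6 with exon unions and 59.4 with the longest transcript. Seed matches were found in 8 members, in 7 as 7mer-m8, in 1 as 7mer-A1 and in 0 as 8-mers.

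Log2 fold changes that turned sign belonged to genes without a call. With total counts they were −0.052 for *Psma4*, −0.092 for *Psmb10*, −0.072 for *Psmd1*, −0.090 for *Psme4*, −0.083 for *Psme3ip1* and −0.019 for *Nfe2l2*. With upper-quartile factors they were −0.039 for *Psmb10*, −0.018 for *Psmd1*, −0.036 for *Psme4* and −0.029 for *Psme3ip1*. With the offset they were −0.025 for *Psma4*, −0.14 for *Psmb10*, 0.0041 for *Psmd11*, −0.0020 for *Psme2*, −0.14 for *Psmg4* and −0.017 for *Psme3ip1*. With a library left out, the ranges that crossed 0 were −0.062 to 0.095 for *Psmb10*, −0.0039 to 0.068 for *Psmd1*, −0.079 to 0.0037 for *Psmd11*, −0.0089 to 0.036 for *Psme4*, −0.12 to 0.054 for *Psmg1*, −0.23 to 0.098 for *Psmg3*, −0.048 to 0.10 for *Psme3ip1* and −0.0027 to 0.17 for *Nfe2l2*. The cause of these changes was not tested. No paired analysis was possible because the labels give no replicate numbers, and the numbers 1 and 2 used within each group only name the libraries in their listed order.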
